A study of Mus musculus with 6 samples.

Results

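Bone morphogenetic protein (BMP) signalling was examined through 10 genes, picked by name and not by a rule on their measured values, out of the 35976 genes of the count table. Earlier results of these data were known when these genes were picked. They are the ligands Bmp2, Bmp4 and Bmp6, the type I receptors Bmpr1a and Bmpr1b, the secreted antagonists Grem1, Nog and Chrdl1, and the target genes Id1 and Id3. All 10 were found and all 10 passed the filter on low counts. The RNA came from mouse chondrocytes of a C57BL/6 x 129S4/SvJae background, isolated from hind limb articular cartilage at embryonic day 18.5 and expanded on plastic for 16 population doublings. Doxycycline at 2 µg/ml was present in both groups and induced a histone H3.3 transgene. In the H3K9M group (replicates 1, 3 and 5) the transgene encodes a lysine-to-methionine mutant that suppresses H3K9 methylation, and in the H3WT group (replicates 1, 2 and 4) it encodes wild-type H3.3. All cells of the comparison thus carry an induced transgene and have been expanded, and neither unexpanded nor uninduced cells are part of it. The labels do not say which promoter or cell type drives the transgene, nor whether the replicates came from separate animals or cultures, so a p-value measures the spread between these libraries, which may be technical.

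BMPs are secreted dimers of the TGF-beta superfamily that bind a complex of type I and type II serine/threonine kinase receptors. The activated type I receptor phosphorylates the receptor Smads, which enter the nucleus with Smad4 and switch on targets such as the Id genes, whose products hold basic helix-loop-helix transcription factors in inactive complexes. Gremlin, Noggin and the chordin-like proteins bind BMPs outside the cell and keep them from their receptors. In the developing limb BMP signals drive the condensation and maturation of cartilage, and Noggin is needed for joints to form.

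The libraries held 15113675 to 19606082 counts. The 11 chondrocyte markers were all detected, and their summed level was 7369 to 11489 CPM (read counts scaled to library size and by the trimmed mean of M-values, TMM) in H3K9M and 7252 to 18919 CPM in H3WT. Most of this sum was Col2a1, at 4971 to 8421 CPM in H3K9M and 4913 to 14110 CPM in H3WT. All but Sox5 had a log2 fold change (H3K9M minus H3WT) below 0, and each overlapped between the groups. Of the 11, 1 (Col9a1, adjusted p 0.395, edgeR) had an unadjusted p under 0.05, against 12.2% of all tested genes. The 5 fibroblast-like markers were also abundant, at 11341 to 29993 CPM in H3K9M and 9416 to 34427 CPM in H3WT, and were lowest in H3K9M replicate 3 and H3WT replicate 2. H3WT replicate 2 stood apart in another respect. It had 517 genes with 1 to 5 counts against 1215 to 1980 in the other libraries, and of the 38 genes at 0 in 1 library with at least 20 counts in each of the 5 others, 30 were at 0 in this library. Skeletal muscle markers separated the groups. Their summed level was 15.3 to 194 CPM in H3K9M and 1.77 to 7.83 CPM in H3WT. All 3 of the 6 that could be tested were higher in each H3K9M library than in any H3WT library, as were 10.7% of all tested genes. The 3 were Myod1, Myh3 and Des (adjusted p 0.244, 0.249 and 0.255, edgeR). None of the 6 was at 0 in every library. Osteoblast markers ran the other way, at 3.27 to 9.91 CPM in H3K9M and 12.0 to 24.5 CPM in H3WT over 3 genes, of which Bglap never exceeded 3 counts. Of the other genes, Ibsp was lower in every H3K9M library (adjusted p 0.227, edgeR), as were 8.68% of all tested genes, and Sp7 overlapped between the groups. The 7 macrophage and blood markers summed to 8.04 to 16.5 CPM against 3.84 to 6.29 CPM, with Ptprc, Adgre1 and Hbb-bs at 0 throughout. The 3 of them that could be tested (Cd68, Csf1r and Lyz2) each overlapped between the groups. Cd68 alone gave 12.8 CPM in H3K9M replicate 3, the library with the highest sum. The 5 endothelial markers summed to at most 0.825 CPM in any library, with Cdh5 and Emcn at 0 throughout. The part of these markers in the differences given below was not tested. In bulk RNA, fewer cells of a type and less RNA per cell cannot be told apart.

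Promoter sequence was at hand in RefSeq (GRCm38.p6) for 6 of the 10 genes. The 250 bases before the annotated start are shown for Grem1, the gene with the smallest p-value of the 10, for Bmpr1b (the first of its 3 starts), the gene that was higher in every H3K9M library, and for Bmp4, the most abundant ligand. Capitals mark the GC-rich Smad motif GGCGCC, which is its own reverse complement, and the Smad-binding element CAGAC or its reverse complement GTCTG. Each sequence runs 5′ to 3′ on the strand of its gene, here the minus strand, and none of the 3 windows holds a base of an exon of its gene in GENCODE M21. The Bmpr1b window nevertheless lies inside the span of its GENCODE gene (chr3:141837136-142169425), between exons.
Grem1 chr2:113758649-113758898: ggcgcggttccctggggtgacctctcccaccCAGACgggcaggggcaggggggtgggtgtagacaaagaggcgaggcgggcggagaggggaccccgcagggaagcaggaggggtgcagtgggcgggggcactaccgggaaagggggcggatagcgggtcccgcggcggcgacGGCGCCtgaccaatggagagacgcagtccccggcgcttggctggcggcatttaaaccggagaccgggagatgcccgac
Bmpr1b chr3:141982265-141982514: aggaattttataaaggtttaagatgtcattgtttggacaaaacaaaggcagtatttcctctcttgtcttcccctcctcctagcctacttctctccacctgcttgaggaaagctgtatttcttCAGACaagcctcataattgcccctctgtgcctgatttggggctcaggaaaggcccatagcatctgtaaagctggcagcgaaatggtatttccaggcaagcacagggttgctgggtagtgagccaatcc
Bmp4 chr14:46390670-46390919: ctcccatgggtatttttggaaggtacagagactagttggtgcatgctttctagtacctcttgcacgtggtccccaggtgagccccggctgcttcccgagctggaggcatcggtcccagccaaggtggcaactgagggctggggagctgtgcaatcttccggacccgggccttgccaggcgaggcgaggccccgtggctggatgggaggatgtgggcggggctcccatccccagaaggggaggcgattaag
The Grem1 window holds both motifs, with GGCGCC beginning 78 bases and CAGAC beginning 219 bases before the start. That combination is present in 3.60% of the 32851 RefSeq promoters read over the same length, while GGCGCC is present in 9.59% and CAGAC or GTCTG in 42.2%. The 2 motifs share no base in these windows. The Bmpr1b window holds CAGAC beginning 128 bases before the start, and the Bmp4 window holds neither. A match describes the letters of the window and not a bound site. Over the 6 genes with a sequence, GGCGCC was found for 2 (Bmpr1a and Grem1) and CAGAC or GTCTG for 4 (Bmp6, Bmpr1b, Grem1 and Id3). All 250 bases of the Bmp6 and Id3 windows, and 141 bases of the Bmpr1a window, lie in GENCODE M21 exons of the gene itself.

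None of the 10 genes passed the test between H3K9M and H3WT. The count was 0 of 10 at an adjusted p under 0.05 (quasi-likelihood test of edgeR, adjusted by Benjamini-Hochberg over the 13761 genes tested), and over all tested genes it was 0%. DESeq2 called 1 of the 10, Grem1, where it called 2.84% of all genes, and limma-voom called 0. At an unadjusted p under 0.05 there were 3 of 10 (Bmp6, Bmpr1a and Grem1), all lower in H3K9M, against 12.2% of all tested genes in either direction, 5.77% lower and 6.42% higher. The libraries of the groups did not overlap for 4 of 10, against 19.4% of all tested genes. These were Bmp6, Bmpr1a and Grem1, lower in H3K9M (8.68% of all genes), and Bmpr1b, higher (10.7% of all genes). With library size alone as the scaling, Bmpr1a and Grem1 overlapped as well. The median log2 fold change (H3K9M minus H3WT) of the 10 genes was -0.51, beside -0.003 over all tested genes. It was -0.22 without H3K9M replicate 3, -0.21 without H3WT replicate 4 and -0.17 when 10 counts were required in every library, which leaves out Bmp2 and Bmp6. Their libraries also varied more, with a median biological coefficient of variation of 0.355, beside 0.239 over all tested genes.

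**Figure D1:**
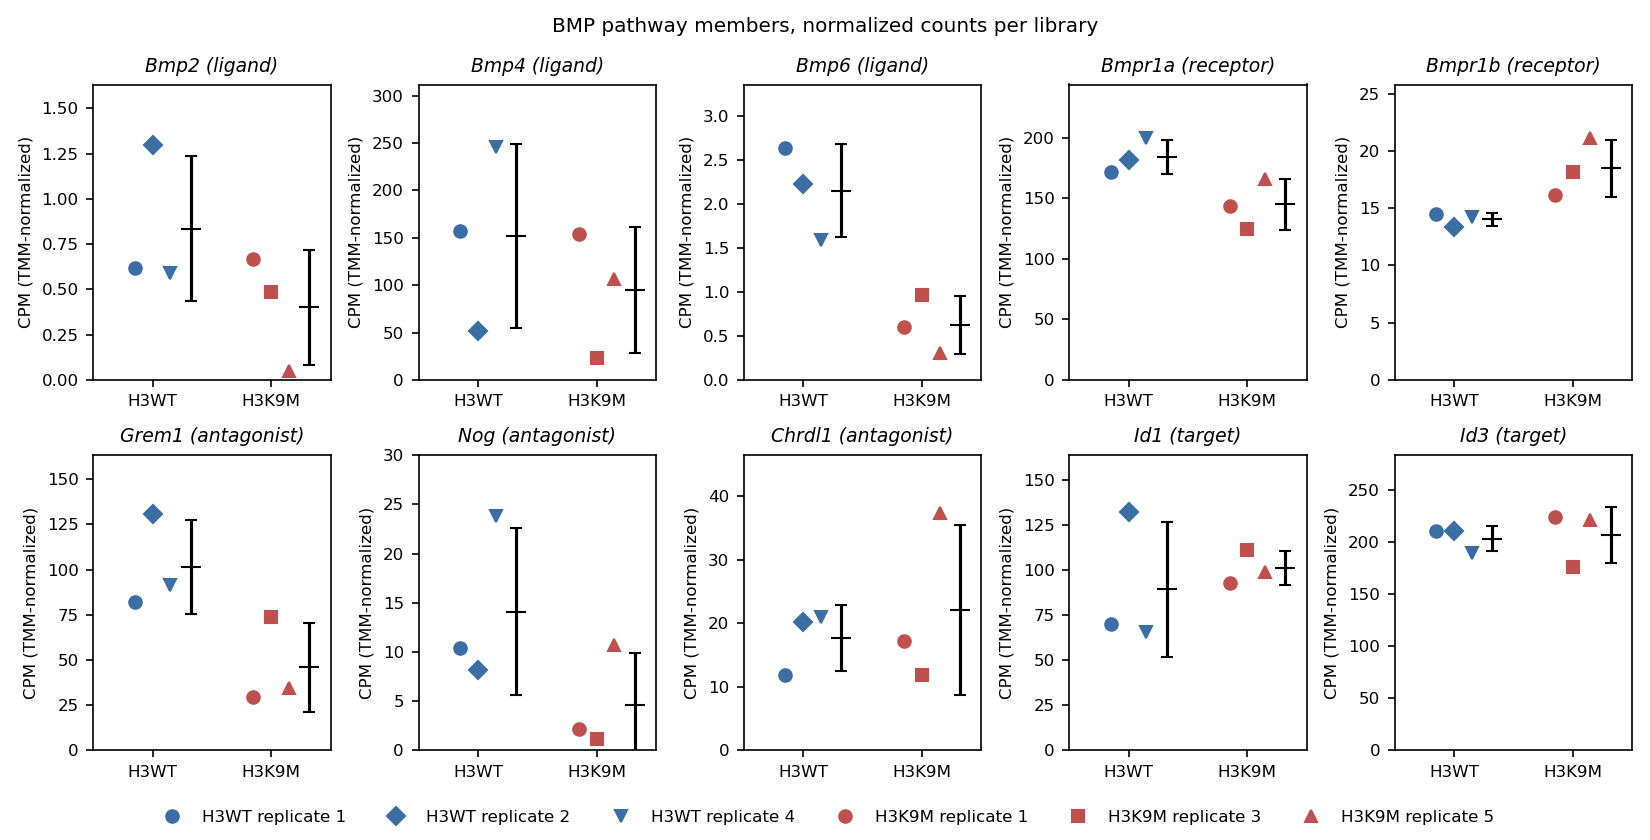
Normalized CPM (y axis, linear from 0) of the 10 genes in each of the 6 libraries, with H3WT in blue and H3K9M in red and the mean ± SD of the 3 libraries in black; the lower end of the H3K9M bar of Nog is cut off at 0. The groups are separated for Bmp6, Bmpr1a, Bmpr1b and Grem1 and overlap for the other 6 genes.

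Ordered by level per length (CPM per kilobase of the longest GENCODE M21 transcript), the pathway's targets stood at the top and 2 of its ligands at the bottom. In H3WT the mean level per length was 159 ± 9.45 for Id3, 76.9 ± 32.3 for Id1, 73.3 ± 47.0 for Bmp4, 30.9 ± 2.39 for Bmpr1a and 24.5 ± 6.21 for Grem1 (SD, n = 3). Below these came Nog at 8.32 ± 4.99, Chrdl1 at 4.32 ± 1.25 and Bmpr1b at 2.63 ± 0.108, then Bmp6 at 0.599 ± 0.147 and Bmp2 at 0.235 ± 0.113. Among neighbours in this order, the H3WT libraries overlapped between Id1 and Bmp4, Bmp4 and Bmpr1a, Bmpr1a and Grem1, and Nog and Chrdl1, and were separate between the other 5 pairs. In H3K9M the first 5 and the last 2 places were the same, and Nog, at 2.75 ± 3.11, stood behind Chrdl1 (5.40 ± 3.27) and Bmpr1b (3.45 ± 0.468). Bmp4 was the only one of the 3 ligands to reach 1 CPM per kilobase in any library.

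Among the ligands, Bmp4 (chr14:46383520-46390669, minus strand of GRCm38) acts early in mesoderm and limb development and was by far the most abundant of the 3. It had 154, 23.0 and 106 CPM in H3K9M replicates 1, 3 and 5, compared with 157, 51.5 and 245 CPM in H3WT replicates 1, 2 and 4. The groups overlapped, and the lowest value of each came from a library that was also low in fibroblast-like markers, H3K9M replicate 3 and H3WT replicate 2. The log2 fold change was -0.68 (standard error 0.79, 95% confidence interval -2.61 to 1.25, adjusted p 0.788, edgeR). Within a group the highest library exceeded the lowest 6.70-fold in H3K9M and 4.77-fold in H3WT, more than the 1.60-fold difference between the groups. Without both of those libraries, a setting added after the data were seen, the log2 fold change was -0.62 with an adjusted p of 0.272 (edgeR), and over all alternatives it ran from -1.23 (without H3K9M replicate 1) to -0.14 (without H3WT replicate 4). Bmp4 overlaps Gm15217 and Gm15222 on the opposite strand, and the strand setting of the counts is not given in the sources used here.

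Bmp6 (chr13:38345107-38500302, plus strand), a ligand also known for hepcidin control in iron metabolism, was scarce but separated the groups. H3K9M replicates 1, 3 and 5 had 9, 20 and 6 counts, and H3WT replicates 1, 2 and 4 had 47, 43 and 27 counts. On the normalized scale that was 0.625 ± 0.331 CPM in H3K9M, compared with 2.15 ± 0.528 CPM in H3WT (SD, n = 3), with every H3K9M library below every H3WT library. The fitted level was 3.41-fold higher in H3WT (log2 fold change -1.77, standard error 0.76, unadjusted p 0.0475, adjusted p 0.406, edgeR). With so few counts the 95% confidence interval reached from -3.52 to -0.02, and the sign was the same in every alternative that could test the gene. Its longest transcript shares 224 bases with Txndc5 on the opposite strand. Bmp2 (chr2:133552159-133562885, plus strand), a ligand required for endochondral bone formation, stood near the limit of detection. It had 10, 10 and 1 counts in H3K9M replicates 1, 3 and 5, compared with 11, 25 and 10 in H3WT replicates 1, 2 and 4. The groups overlapped, the log2 fold change was -1.06 (standard error 1.10, adjusted p 0.745, edgeR), and the 95% confidence interval of -3.58 to 1.46 included differences in either direction. Leaving out H3K9M replicate 5, the library with 1 count, gave -0.53, and leaving out H3WT replicate 2 gave -0.59.

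The values of the 2 type I receptors lay in opposite directions, neither past the test. Bmpr1a (chr14:34410734-34503341, minus strand), the type I receptor that is widely expressed and needed in growth plate cartilage, had 144, 125 and 166 CPM in H3K9M replicates 1, 3 and 5 against 171, 182 and 199 CPM in H3WT replicates 1, 2 and 4. All 3 H3K9M libraries lay below all 3 H3WT libraries. The mean was 145 ± 20.8 CPM against 184 ± 14.2 CPM (SD, n = 3; log2 fold change -0.35, standard error 0.14, interval -0.67 to -0.03, unadjusted p 0.0374, adjusted p 0.382, edgeR). Bmpr1b (chr3:141837136-142169425, minus strand), the receptor of digit cartilage and the main partner of Gdf5, had 16.1, 18.2 and 21.1 CPM in H3K9M, compared with 14.5, 13.4 and 14.3 CPM in H3WT, in the same order of replicates. Here every H3K9M library was above every H3WT library, and H3WT replicate values lay close together. The log2 fold change was 0.40 (standard error 0.19, interval -0.05 to 0.84, adjusted p 0.453, edgeR). Per length Bmpr1a was the more abundant of the receptors in each library, with at least 20.9 CPM per kilobase against at most 3.95 for Bmpr1b. Bmpr1a shares 290 bases with Gm17110 on the opposite strand.

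Of the secreted antagonists, Grem1 was lower in every H3K9M library, while Nog and Chrdl1 overlapped between the groups. Grem1 (chr2:113746164-113758646, minus strand) encodes Gremlin 1, an antagonist that limits BMP action in limb bud mesenchyme and articular cartilage. It had 29.4, 74.0 and 34.4 CPM in H3K9M replicates 1, 3 and 5, compared with 82.1, 131 and 91.6 CPM in H3WT replicates 1, 2 and 4. The groups did not overlap, although H3K9M replicate 3 came close to H3WT replicate 1. The mean of 46.0 ± 24.4 CPM in H3K9M stood against 101 ± 25.8 CPM in H3WT (SD, n = 3), a fitted level 2.20-fold higher in H3WT (log2 fold change -1.14, standard error 0.37, interval -2.02 to -0.26, unadjusted p 0.0186, adjusted p 0.312, edgeR). Grem1 was lower in H3K9M in all 13 alternatives, with log2 fold changes of -1.66 to -0.90 and adjusted p-values from 0.0112 to 0.579. It passed the threshold in 2 of them. The first was the DESeq2 Wald test (adjusted p 0.0409), which called 2.84% of all genes. The other was the edgeR fit without H3K9M replicate 3 and H3WT replicate 2 (adjusted p 0.0112, log2 fold change -1.43). That setting was added after the data were seen, left out the library with the highest Grem1 of each group, and called 302 of 13821 genes.

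Nog (chr11:89300638-89302332, minus strand), which encodes Noggin, had 2.14, 1.11 and 10.7 CPM in H3K9M replicates 1, 3 and 5, compared with 10.4, 8.15 and 23.8 CPM in H3WT replicates 1, 2 and 4. H3K9M replicates 1 and 3 lay below every H3WT library, and H3K9M replicate 5 lay inside the H3WT range. The log2 fold change was -1.59 (standard error 0.86, interval -3.64 to 0.46, adjusted p 0.499, edgeR). It was -3.11 without H3K9M replicate 5 (adjusted p 0.308), and between -1.86 and -0.99 without any other library. Chrdl1 (chrX:143285674-143394262, minus strand), an X-linked chordin-like BMP antagonist, had 17.1, 11.9 and 37.3 CPM in H3K9M, compared with 11.8, 20.2 and 21.0 CPM in H3WT, in the same order of replicates. The highest value was again H3K9M replicate 5, and the groups overlapped. The log2 fold change of 0.32 (standard error 0.44, adjusted p 0.823, edgeR) turned to -0.28 without that library. Transcripts of the X-inactivation RNA Xist (56.0 to 407 CPM) and of the Y-linked Ddx3y (30.7 to 79.9 CPM) were both present in all 6 libraries. The part of sex composition in the Chrdl1 values was not tested.

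The 2 target genes had the smallest log2 fold changes of the 10, with overlapping groups. Id3 (chr4:136143497-136145755, plus strand) had 224, 176 and 221 CPM in H3K9M replicates 1, 3 and 5, compared with 210.4, 210.2 and 189 CPM in H3WT replicates 1, 2 and 4. Libraries of a group differed little, and the log2 fold change was 0.02 (standard error 0.13, adjusted p 0.963, edgeR) with a 95% confidence interval of -0.28 to 0.33. Id1 (chr2:152736251-152737410, plus strand) had 92.8, 111 and 99.0 CPM in H3K9M, compared with 69.8, 132 and 65.4 CPM in H3WT, in the same order. The H3K9M libraries lay together between the H3WT extremes, of which H3WT replicate 2 was the upper one. The log2 fold change was 0.18 (standard error 0.27, interval -0.45 to 0.80, adjusted p 0.841, edgeR). Leaving out H3WT replicate 2 gave 0.59 (adjusted p 0.108), and leaving out H3WT replicate 4 gave 0.0005.

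**Figure D2:**
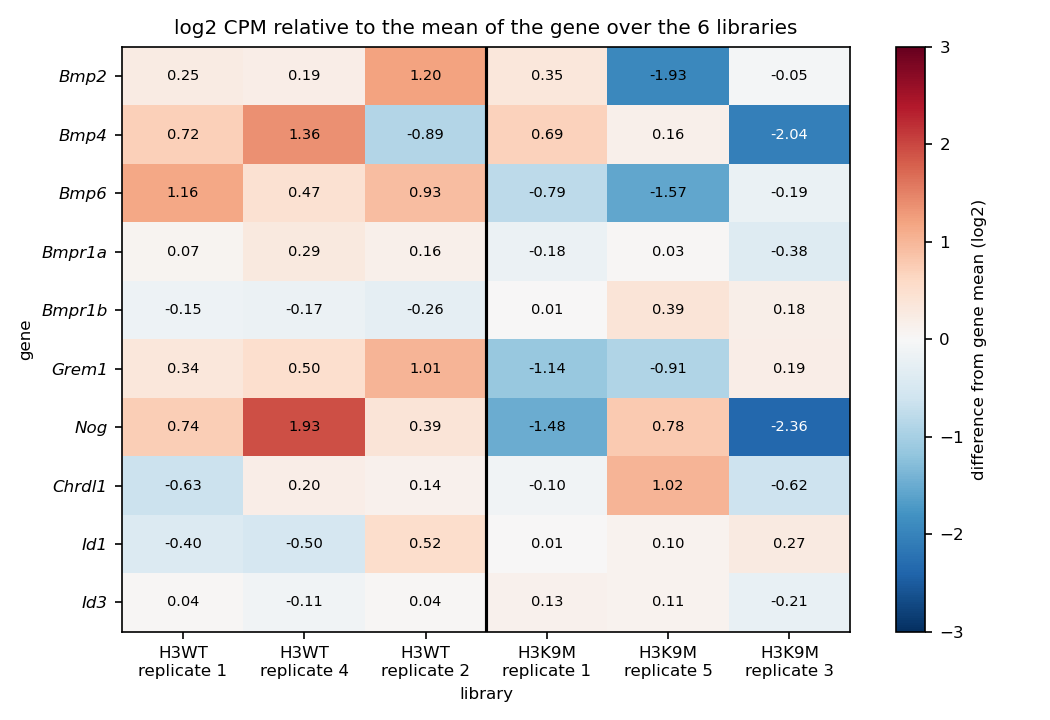
Level of each of the 10 genes (rows) in each library (columns) relative to the mean of that gene over the 6 libraries, in log2 CPM with a prior count of 2; red is above and blue below the mean, and the black line divides H3WT from H3K9M. Bmp4 and Nog range widest, from -2.04 to 1.36 and from -2.36 to 1.93, while Id3 stays between -0.21 and 0.13.

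Ratios of genes within a library do not depend on how libraries are scaled, and 2 were compared after adding 0.5 to each count. The log2 ratio of Grem1 to Bmp4 counts was -2.39, 1.68 and -1.63 in H3K9M replicates 1, 3 and 5, compared with -0.94, 1.34 and -1.42 in H3WT replicates 1, 2 and 4. The antagonist therefore outnumbered the ligand in reads in H3K9M replicate 3 and H3WT replicate 2 and in neither group as a whole. The groups differed by -0.44 (exact two-sided permutation p 0.7, n = 3 each). The direction turned without H3K9M replicate 1 (0.37) or H3WT replicate 2 (0.40), and the difference was -1.67 without H3K9M replicate 3. The log2 ratio of Id1 to Id3 averaged -1.03 ± 0.323 in H3K9M and -1.26 ± 0.518 in H3WT (SD), a difference of 0.23 (exact two-sided permutation p 0.5, n = 3 each). With 3 libraries against 3 this test cannot give a p below 0.1, and adjusted over the 2 ratios (Benjamini-Hochberg) both p-values were 0.7.

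**Figure D3:**
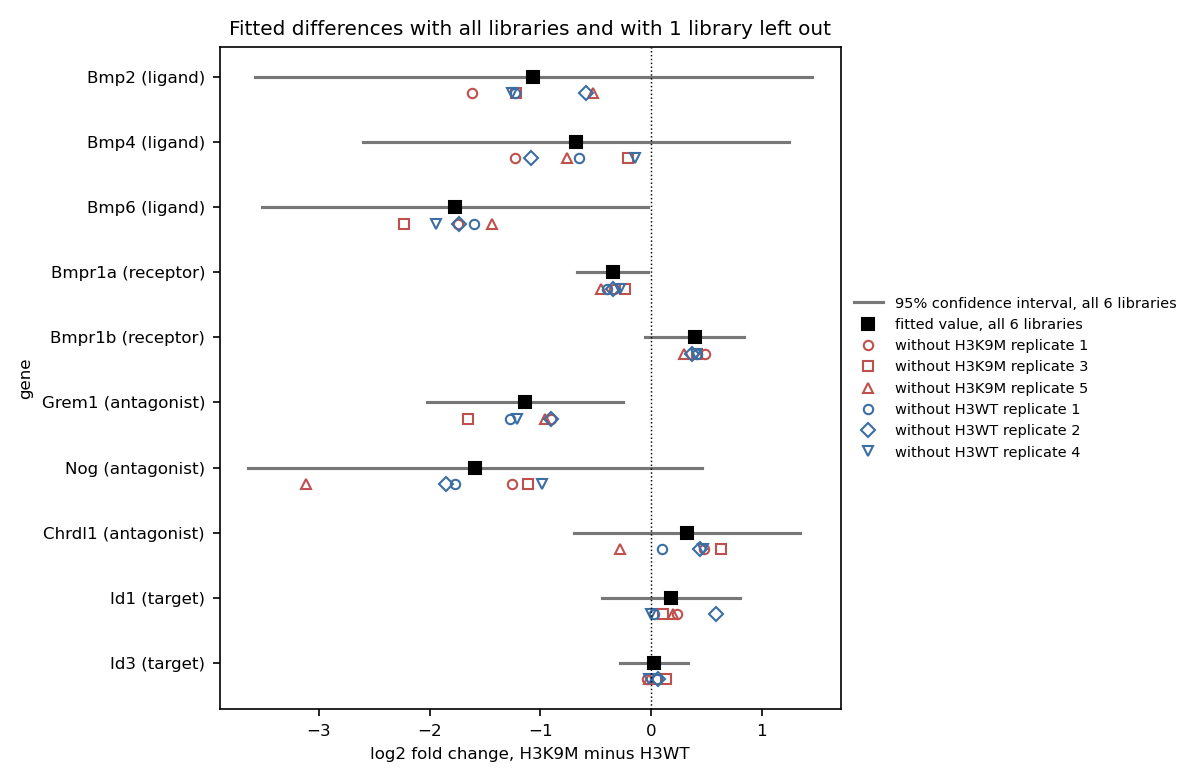
Log2 fold change (x axis, H3K9M minus H3WT) of each of the 10 genes from all 6 libraries (black square, with the 95% confidence interval as a line) and from the 6 fits that each leave out 1 library (open symbols under it). The sign is the same in all 6 such fits for 8 genes, while Chrdl1 crosses 0 once and Id3 3 times.

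The rest of the pathway was read from a list of 47 genes chosen by function, of which 38 passed the filter on low counts. None passed an adjusted p of 0.05 (0 of 38, edgeR). At an unadjusted p under 0.05 there were 8 of 38, against 12.2% of all tested genes, with 6 lower in H3K9M (5.77% of all tested genes) and 2 higher (6.42%). The groups did not overlap for 7 of 38, a share near the 19.4% of all tested genes, and 6 of the 7 were lower (8.68% of all tested genes). DESeq2 called 5 of the 38 (Atoh8, Id4, Eng, Smad9 and Acvrl1), all lower in H3K9M, where it called 2.84% of all genes. The median log2 fold change of the 38 was -0.16 (-0.28 without H3K9M replicate 3 and -0.10 with library size alone), and 25 of them were below 0, beside 50.4% of all tested genes. The list names inhibitors, activators and targets alike, so its counts have no direction of signalling. Atoh8, Eng, Id4, Tll1, Id2 and Bmp7 were named by a rule on p-values, and the other genes of the list named here were chosen after their values were seen.

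Of the 12 inhibitors and target genes, 9 had a log2 fold change below 0, beside 50.4% of all tested genes. Atoh8, a basic helix-loop-helix factor known as a BMP target, had the smallest p of the list. It had 146, 119.6 and 154 CPM in H3K9M replicates 1, 3 and 5, compared with 257, 234 and 237 CPM in H3WT replicates 1, 2 and 4, with no overlap and little spread (log2 fold change -0.79, standard error 0.13, adjusted p 0.170, edgeR). It passed with DESeq2 (adjusted p 8.98e-05) and when every gene with a count was tested (0.0295, edgeR). It also passed without H3K9M replicate 3 and H3WT replicate 2 (0.0312, edgeR), the setting added after the data were seen. Its adjusted p reached 0.495 without H3WT replicate 4 (edgeR). Id4 had the log2 fold change farthest from 0 among the 4 Id genes. It had 6.50, 3.53 and 3.42 CPM in H3K9M, compared with 29.0, 9.55 and 25.3 CPM in H3WT, in the same order (log2 fold change -2.25, standard error 0.47, adjusted p 0.197, edgeR). H3WT replicate 2 was the lowest of its group, and without it Id4 passed (log2 fold change -2.60, adjusted p 0.0291, edgeR), as it did with DESeq2 (0.000444), over a range of adjusted p up to 0.495. Id2 lay the other way, at 64.6, 82.7 and 87.9 CPM in H3K9M against 45.0, 67.9 and 41.9 CPM in H3WT (log2 fold change 0.60, standard error 0.21, adjusted p 0.324, edgeR), and the groups overlapped through H3WT replicate 2. The 4 Id genes thus had log2 fold changes of -2.25 (Id4), 0.02 (Id3), 0.18 (Id1) and 0.60 (Id2), and whether they differ from each other was not tested.

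Among the receptors and coreceptors, Eng, which encodes the coreceptor endoglin, had 53.9, 51.6 and 50.5 CPM in H3K9M replicates 1, 3 and 5, compared with 77.5, 88.7 and 74.1 CPM in H3WT replicates 1, 2 and 4. The groups did not overlap, and the log2 fold change was -0.62 (standard error 0.12, adjusted p 0.180, edgeR; 0.00635 with DESeq2). Acvrl1, the type I receptor Alk1 that pairs with endoglin in endothelium, had 3.76 ± 2.18 CPM in H3K9M, compared with 13.0 ± 5.37 CPM in H3WT (SD, n = 3; log2 fold change -1.78, standard error 0.50, adjusted p 0.249, edgeR), and H3WT replicate 2 (6.80 CPM) lay next to H3K9M replicate 3 (6.28 CPM). The endothelial markers given above were at most 0.825 CPM in sum in any library. The part of endothelial cells in the Eng and Acvrl1 values was not tested. Smad9, a BMP receptor Smad, had 30.2 ± 4.78 CPM against 49.5 ± 1.85 CPM (log2 fold change -0.71, standard error 0.16, adjusted p 0.206, edgeR). All 4 intracellular transducers of the list had log2 fold changes below 0, as did 50.4% of all tested genes. Those of Smad1, Smad4 and Smad5 were -0.73, -0.22 and -0.17. The type II receptor Bmpr2 and the type I receptor Acvr1 overlapped between the groups, with log2 fold changes of -0.28 and -0.03. Acvr2b, a type II receptor, had 0 counts in H3WT replicate 2 and 35 to 87 in the other libraries.

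Of the secreted modulators, Tll1, a tolloid-like protease that cleaves chordin and so frees BMPs, had 12.9, 15.5 and 13.2 CPM in H3K9M, compared with 8.76, 7.99 and 4.83 CPM in H3WT, in the same order of replicates. It was the only gene of the list higher in every H3K9M library than in any H3WT library (log2 fold change 0.95, standard error 0.29, adjusted p 0.277, edgeR). Its relative Bmp1 had a log2 fold change of -0.14 and chordin itself (Chrd) 0.08, both with overlapping groups. Among the other ligands, Bmp7 had 7.37, 28.3 and 0.867 CPM in H3K9M, compared with 4.83, 3.01 and 1.53 CPM in H3WT, a 32.6-fold range within H3K9M, and its log2 fold change of 1.96 (standard error 1.10, adjusted p 0.516, edgeR) was 0.40 without H3K9M replicate 3. Gdf5, a ligand of joint cartilage, and Bmp5 followed libraries and not groups. Gdf5 had 59.0 CPM in H3K9M replicate 3 and 55.8 CPM in H3WT replicate 2 against 12.2 to 18.2 CPM in the other 4, and Bmp5 had 40.6 and 51.5 CPM against 10.5 to 19.6 CPM. In Bmp4 the same 2 libraries were the lowest, at 23.0 and 51.5 CPM against 106 to 245 CPM in the other 4. Gdf2, Bmp10, Sost and Sostdc1 had 0 counts in every library.

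**Figure D4:**
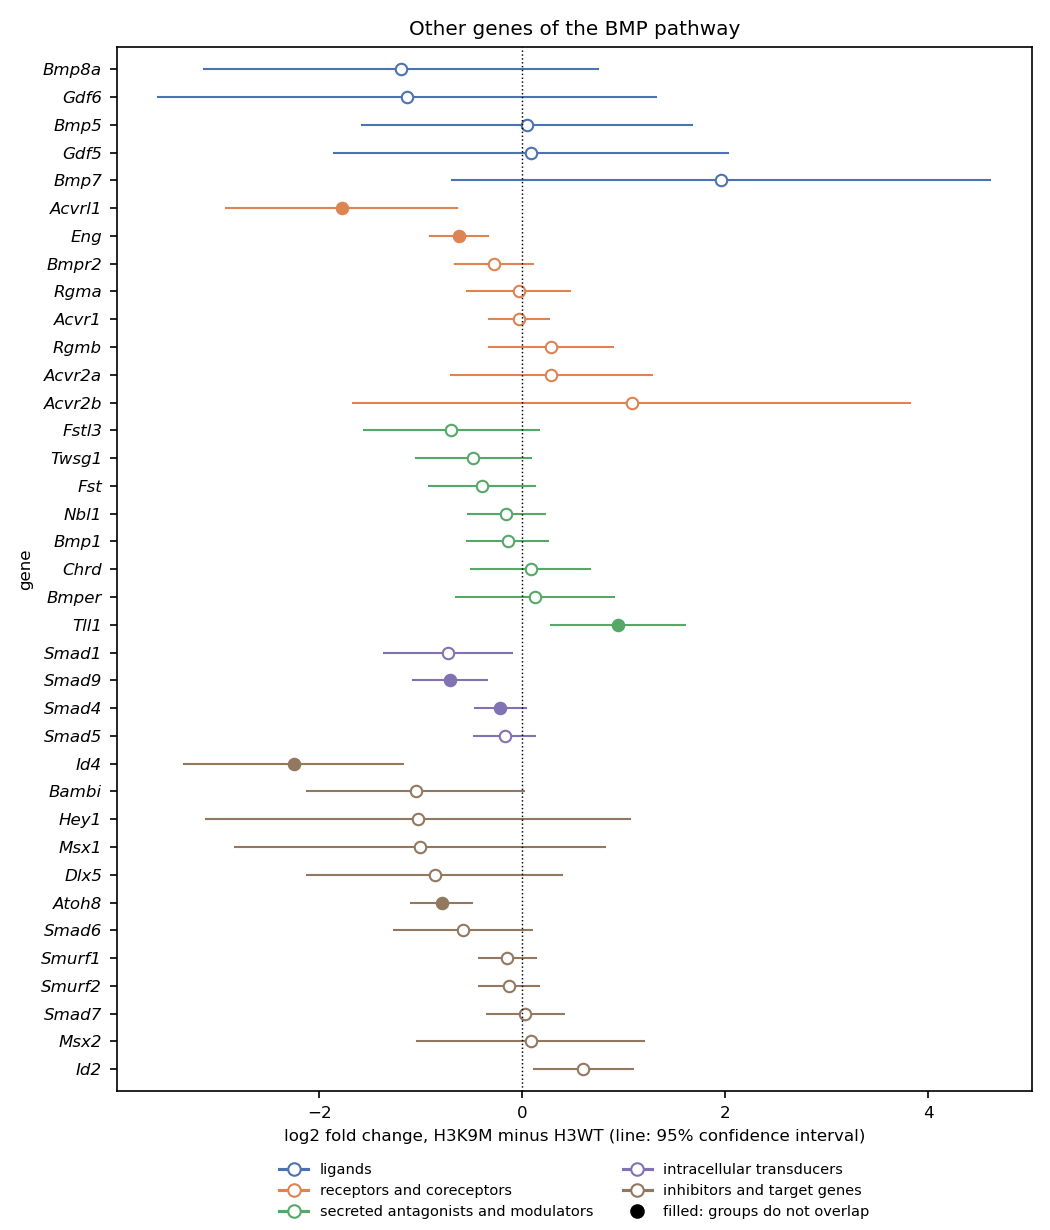
Log2 fold change (x axis, H3K9M minus H3WT) with its 95% confidence interval for 37 of the 38 tested genes of the wider BMP pathway, coloured by role; a filled point marks a gene whose groups do not overlap. Of the 7 filled points 6 lie below 0, with Id4 at -2.25 and Acvrl1 at -1.78, and Tll1 lies at 0.95.

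Outside the pathway, the tested genes closest to Grem1 over the 6 libraries were Fbxo44, Lrrc29 and Pnmal2. Likeness was the mean absolute difference of log2 CPM after centring each gene on its own mean, which came to 0.15, 0.16 and 0.17. Of the 3, Fbxo44 had 2.78 ± 1.57 CPM in H3K9M, compared with 7.14 ± 0.881 CPM in H3WT (SD, n = 3). All 3 were low in level, and with 6 libraries and 13761 genes some can lie close to any gene by their number.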

How the data were processed

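Polyadenylated RNA was sequenced in 3 H3K9M and 3 H3WT libraries, grouped by their titles. The authors deposited a table of raw read counts with a row for each gene symbol; the submitters' processing notes name HISAT2, featureCounts, DESeq2 and mm10, and the annotation and strand setting are not given in the sources used here. Every column belonged to a sample of the series. The tests used edgeR 4.0.16 under R 4.3.3: filterByExpr, TMM scaling and a robust quasi-likelihood test with genotype as the only term, adjusted over 13761 genes. The standard error is the log2 fold change divided by the root of the F statistic. Alternatives were DESeq2 1.42.0, limma-voom (limma 3.58.1), other scalings, filters and thresholds, and leaving out libraries. Replicate pairs within a group differed by at least 26.5 times sampling variance (chi-square per degree of freedom), so none was 1 library sequenced again. This measure cannot tell whether 2 libraries were prepared from the same RNA or culture. Pairs across the groups are not covered by it. Positions and lengths are from GENCODE M21 (GRCm38, the mm10 assembly). Similar transcripts (90% identity over 200 bases) were sought with blastn 2.17.0. The test code was tested on simulated data. 1 gene of the wider list is counted but not reported here. The rule for named genes took the 10 genes, any list gene past an adjusted p of 0.05, the 3 list genes of lowest p on each side, and the 3 genes closest to the one with the smallest p. The genes and lists were chosen with earlier results of these data known.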

Additional observations from a re-analysis of the deposited data

How the results depend on the processing

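No paired analysis was possible because the groups share only replicate number 1. The count of the 10 genes past an adjusted p of 0.05 was 0, and it was 1 (Grem1) with DESeq2 and 1 (Grem1) without both H3K9M replicate 3 and H3WT replicate 2, a setting chosen after seeing the data. In the wider list it was 0, but 1 with every gene that had a count (Atoh8), 5 with DESeq2, 4 without those 2 libraries, and 0 to 1 when 1 library was left out (Id4, without H3WT replicate 2). Over all genes it was 0 of 13761, but 1 at an adjusted p under 0.10. It was 36 of 19994 with every gene that had a count, 390 of 13752 with DESeq2 and 302 of 13821 without both libraries. When 1 library was left out it was 0 to 91, the 91 (of 14246) coming without H3WT replicate 2.

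The 10 genes held 3 at an unadjusted p under 0.05. That number was 4 with DESeq2 and with limma-voom, 1 with library size alone and 1 to 2 when a library was left out. The number with separated groups was 4, and 2 with library size alone, 7 without both libraries and 4 to 6 when 1 was left out. The 7 stood beside 6935 of 13821 tested genes separated in that setting. In the wider list 8 genes had an unadjusted p under 0.05, 11 with DESeq2, 14 without both libraries and 6 to 13 with 1 left out. Separated groups were found for 7 genes of the list, 19 without both libraries and 8 to 16 with 1 left out. Of 13761 genes tested, 1677 had an unadjusted p under 0.05, and 1866 with DESeq2, 1643 with limma-voom and 1665 with library size alone. That all-gene number was 2542 of 13821 without both libraries. With 1 left out it ran from 1212 of 14288 (without H3K9M replicate 1) to 2434 of 14246 (without H3WT replicate 2). Over all genes the separated number was 2671 of 13761, 2660 of 13761 with library size alone and 6935 of 13821 without both libraries. With 1 left out it ran from 3828 of 14288 (without H3K9M replicate 1) to 5331 of 14246 (without H3WT replicate 2). These numbers rise since fewer libraries leave fewer ways for groups to overlap. When 1 library was left out, the Grem1 to Bmp4 difference ran from -1.67 to 0.40, turning positive without H3K9M replicate 1 (0.37) or H3WT replicate 2 (0.40), and the Id1 to Id3 difference from 0.05 to 0.53. Id3 turned to -0.032, -0.015 and -0.022 without H3K9M replicates 1 and 5 and H3WT replicate 4, and Chrdl1 to -0.28 without H3K9M replicate 5, within ranges of -0.032 to 0.14 and -0.28 to 0.64 when 1 library was left out. The cause of these changes was not tested. No other sign among the 16 genes followed changed in the alternatives that could test them.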
